A study of Arabidopsis thaliana with 12 samples.

Results

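The loci described here are 150 of the 32592 loci in the files whose transcript level in rosette leaves of Arabidopsis thaliana was highest at dawn in every genotype measured. Levels are given as RPKM, which scales reads to transcript length and to library size, and were summed over the gene models of a locus. The members were chosen by these levels. For each genotype, the score took log2(RPKM + 1) at ZT0, the start of the light period, and subtracted the higher of the values at ZT6 and ZT15. ZT stands for zeitgeber time, the hours since lights on. The lowest of the 4 genotype values was the score of the locus, and the 150 loci with the highest score were taken. Chloroplast and mitochondrial loci were left out, and 7 loci were left out by name: the clock genes CCA1, LHY, RVE1, RVE2, RVE4 and RVE8, and GBSS1, which encodes granule-bound starch synthase.

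In plants, a circadian clock times a large part of the transcriptome to particular hours of the day. The related MYB-like factors CCA1, LHY and several of the RVE proteins peak around dawn and bind short promoter sequences, among them the evening element and the CCA1 binding site. Transcripts that peak at dawn include genes for nitrogen assimilation, for the use of sugars at the end of the night, and for light signalling by B-box zinc finger proteins.

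The study sequenced messenger RNA from leaves of plants 3 weeks old that had not bolted, grown on soil with 16 h of light at 22 °C and 8 h of dark at 20 °C. The genotypes were the Columbia accession (Col), the accession C24, and their reciprocal F1 hybrids ColxC24, whose mother was Col, and C24xCol, whose mother was C24. Leaves of each genotype were taken at those 3 times, and every pairing of genotype and time gave 1 of the 12 libraries, so no value has replicate error. Whether a library pooled several plants is not stated in the sources used here. The series concerns heterosis, the vigour of hybrids. All 12 libraries were high in the mesophyll marker RBCS1A (22088 to 36762 RPKM), root, floral and seed markers reached at most 1.31 RPKM, and guard cell markers lay between 5.68 and 18.2 RPKM. The estimated depth was 16.6 M reads in Col at ZT0 and 22.8 to 26.5 M reads in the other libraries. In bulk leaf RNA, fewer cells of a type and less RNA per cell cannot be told apart.

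Of the 150 loci, 148 had an entry in the RefSeq annotation TAIR10.1, matched by locus tag, and 144 of these were protein-coding in it. For 21 the annotation gave a product that is uncharacterized, hypothetical or named with a domain of unknown function (DUF). Promoters were searched for known clock and light motifs, and those of 5 members are shown because each belongs to a gene described here and holds a searched motif. Each is the 300 bases before the annotated gene start on the gene's strand in build TAIR10.1, from RefSeq, with the motif in capitals. The positions are chr5:6225656-6225955, plus strand, for BMY3; chr5:15878398-15878697, plus strand, for CDF2; chr3:489468-489767, minus strand, for COL2; chr1:14158152-14158451, plus strand, for NIA2; and chr4:17672354-17672653, minus strand, for BT5. The deposited values were made on build TAIR9 and carry no positions.
BMY3: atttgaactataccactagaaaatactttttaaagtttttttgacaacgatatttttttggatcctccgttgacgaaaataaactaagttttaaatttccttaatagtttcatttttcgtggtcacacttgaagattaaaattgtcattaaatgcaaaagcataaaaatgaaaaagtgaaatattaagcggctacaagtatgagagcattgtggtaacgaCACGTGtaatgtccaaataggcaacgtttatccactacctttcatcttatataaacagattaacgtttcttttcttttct
CDF2: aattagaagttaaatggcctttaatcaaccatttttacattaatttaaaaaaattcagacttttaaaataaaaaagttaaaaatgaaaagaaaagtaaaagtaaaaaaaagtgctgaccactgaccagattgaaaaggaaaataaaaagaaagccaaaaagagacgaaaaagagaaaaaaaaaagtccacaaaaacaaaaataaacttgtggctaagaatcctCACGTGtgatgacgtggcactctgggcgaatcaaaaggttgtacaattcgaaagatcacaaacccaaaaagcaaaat
COL2: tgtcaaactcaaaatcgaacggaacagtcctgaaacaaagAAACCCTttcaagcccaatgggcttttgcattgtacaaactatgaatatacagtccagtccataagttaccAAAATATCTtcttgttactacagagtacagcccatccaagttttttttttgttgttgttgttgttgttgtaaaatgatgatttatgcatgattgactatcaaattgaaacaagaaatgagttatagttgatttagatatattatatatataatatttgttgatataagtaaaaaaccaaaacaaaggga
NIA2: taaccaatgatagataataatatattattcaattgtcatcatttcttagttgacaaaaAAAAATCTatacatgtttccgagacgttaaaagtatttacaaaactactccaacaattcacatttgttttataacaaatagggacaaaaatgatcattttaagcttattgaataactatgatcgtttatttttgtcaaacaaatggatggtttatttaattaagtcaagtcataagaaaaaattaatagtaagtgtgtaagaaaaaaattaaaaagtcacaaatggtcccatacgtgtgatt
BT5: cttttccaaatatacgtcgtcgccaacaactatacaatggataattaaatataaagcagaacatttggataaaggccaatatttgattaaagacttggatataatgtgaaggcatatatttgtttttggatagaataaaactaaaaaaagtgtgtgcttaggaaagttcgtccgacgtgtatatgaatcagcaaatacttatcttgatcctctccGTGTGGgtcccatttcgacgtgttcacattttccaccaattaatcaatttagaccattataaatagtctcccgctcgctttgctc

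The capitals mark a G-box (CACGTG), 80 bases before the start of BMY3 and 77 bases before that of CDF2. In COL2 they mark the evening element (AAAATATCT), 189 bases before the start, and a telo box (AAACCCT) at 260 bases. In NIA2 they mark a CCA1 binding site (AAAAATCT) at 242 bases, and in BT5 the morning element core (CCACAC, found on the opposite strand) at 85 bases. Both strands were searched.

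The evening element was present before 0.676% of the 148 members with a window, COL2 being the 1 member, and before 3.00% of all 17014 loci that averaged 1 RPKM or more and had a window. The CCA1 binding site was present in 7.43% of members and 8.11% of loci, and the G-box in 7.43% and 8.02%. The morning element core was present in 12.2% of members (18 of 148) and 7.29% of loci. Its carriers included BT5, BBX14, BBX25, HYH and DRM2. For the HUD box (CACATG) the shares were 10.8% and 12.6%, for the telo box 6.08% and 7.72%, and for the protein box (ATGGGCC) 3.38% and 10.05%. A match is a run of letters in this window and says nothing of binding, and the shares were not tested. The median GC content of the windows was 30.5% in members and 31.3% in loci.

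The time course chose the members, so it is given as a description with no test. The median member was at 62.4, 45.0, 41.1 and 50.4 RPKM at ZT0 in Col, C24, ColxC24 and C24xCol. It was at 10.9, 8.77, 7.65 and 12.1 RPKM at ZT6 and at 6.90, 6.90, 7.49 and 7.85 RPKM at ZT15, in the same order of genotypes. Lists of 4 values below keep this order. Together the members held 2.48, 1.83, 1.58 and 2.11% of all RPKM at ZT0, against 0.247 to 0.431% at ZT6 and 0.269 to 0.283% at ZT15. The dawn share was therefore highest in Col and lowest in ColxC24.

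**Figure D1:**
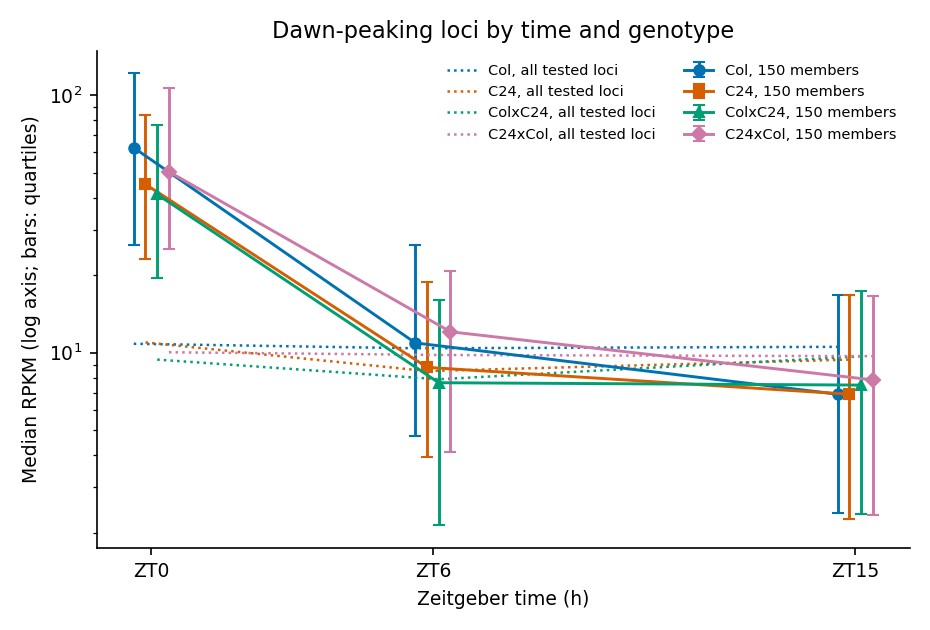
Median RPKM of the 150 members (solid lines, bars from the lower to the upper quartile over members) and of the 17207 loci averaging 1 RPKM or more (dotted lines), by zeitgeber time on a log axis, for 4 genotypes with 1 library each per time. Member medians lie between 41.1 and 62.4 RPKM at ZT0 and between 6.90 and 12.1 RPKM at the later times.

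Scores ran from 4.83 for BMY3, a 28.4-fold excess on the RPKM + 1 scale in its lowest genotype, to 1.17 for the last member, a 2.25-fold excess. The median score was 1.48, and 29 members scored at least 2. The limit cut through a continuous range: the last members were AT5G16110 (1.18), AT2G22420 (1.17), TPS10 (1.17) and AT1G21830 (1.17). The first loci outside were AT5G23380 (1.17), BBX20 (1.16), AT5G41761 (1.15) and APR2 (1.14), the last of these encoding an enzyme of sulfate reduction. A score above 0 was found in 20.8% of these 17207 loci, so a dawn maximum as such was common. Of the loci left out by name, LHY scored 5.02, RVE1 3.98, RVE4 2.17, CCA1 1.93, RVE8 1.86, RVE2 1.64 and GBSS1 1.04, the last below the limit.

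**Figure D2:**
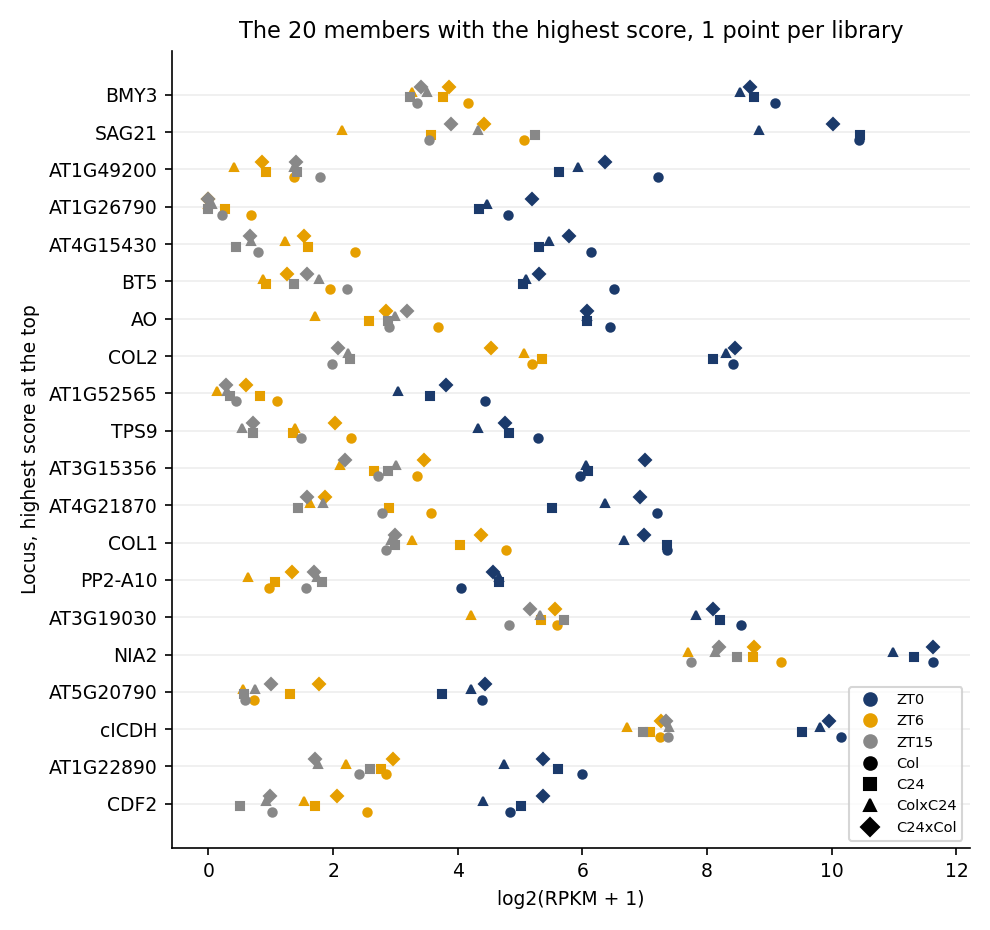
log2(RPKM + 1) of the 20 members with the highest score, 1 point per library, coloured by time and shaped by genotype. For each of the 20 loci every ZT0 point lies to the right of all ZT6 and ZT15 points.

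Transcription factors made up 16 of the members. Of 32 B-box and CONSTANS-like zinc finger genes, 5 were members: COL1, COL2, BBX14, BBX25 and BBX32. The score was above 0 in 10 of the 28 that averaged 1 RPKM or more (35.7%, all loci 20.8%). The median score of the 28 was -0.34, against -0.39 over all loci. BBX28, BBX22 and BBX24 were lower at dawn than at a later time in every genotype, with scores of -4.41, -3.84 and -3.17. COL2, a close relative of the flowering regulator CONSTANS, was at 339, 272, 314 and 346 RPKM at ZT0, at 35.6, 39.8, 32.5 and 22.0 at ZT6 and at 2.96, 3.81, 3.70 and 3.22 at ZT15. It thus had intermediate levels at ZT6 and low ones at ZT15 in all genotypes, with no overlap between the 3 times. The related COL1 was at 163, 162, 101 and 126 RPKM at ZT0, 26.4, 15.4, 8.66 and 19.7 at ZT6 and 6.19, 7.0, 6.63 and 6.94 at ZT15. AT5G15845, also a member, overlaps COL1 on the opposite strand, and use of strand in counting is not stated in the sources used here, so their reads cannot be told apart. BBX14, named COL6 in older work, was at 457, 402, 343 and 431 RPKM at ZT0, and its values at ZT6 (91.6, 82.7, 45.8 and 75) and ZT15 (87.4, 104, 93.5 and 114) overlapped. BBX25 was at 164, 175, 156 and 199.8 RPKM at ZT0, 71.1, 53.9, 40.3 and 48.7 at ZT6 and 9.44, 3.05, 5.67 and 7.60 at ZT15, a stepwise order like that of COL2. BBX32, which acts with other B-box proteins in seedling light responses, was the weakest of the 5 at dawn with 18.4, 21.4, 17.4 and 24.4 RPKM. BBX20 stood just outside the limit at rank 152.

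CDF2, a Dof factor that represses CONSTANS transcription, was at 27.6, 31.4, 20.1 and 40.3 RPKM at ZT0, 4.83, 2.26, 1.90 and 3.18 at ZT6 and 1.04, 0.426, 0.888 and 0.985 at ZT15. It was the 1 member among 28 clock and clock output genes, 6 of which the rule left out by name. Of the 26 averaging 1 RPKM or more, left-out loci included, 10 scored above 0 (38.5%, all loci 20.8%). A second Dof factor among the members, AT1G26790, was not on the clock list. It was close to silent later in the day, at 27.1, 19.4, 21.1 and 35.5 RPKM at ZT0, 0.608, 0.205, 0 and 0 at ZT6 and 0.157, 0, 0.0352 and 0 at ZT15. HYH, the homologue of the light-signalling bZIP factor HY5, was the 1 member among 20 genes of photoreceptors and light signalling, at 110.1, 128, 108 and 107 RPKM at ZT0. At ZT6 it was at 31.5, 30.3, 7.73 and 23.2 RPKM, with ColxC24 the lowest. On that light signalling list, which did not hold RPT2, 7 of 20 genes scored above 0 (35%, all loci 20.8%). The other transcription factors were AT5G49700, DEAR2, TGA4, AT2G28200, EBP, WRI4, UNE10 and BZO2H3, the last a bZIP factor of the energy response. None of the 14 listed genes of the PIF growth module was a member, and only 6 of them averaged 1 RPKM or more, of which 0 scored above 0. The PIF factors on that list were PIF1, PIF3, PIF4 and PIF5. UNE10 was not on it, so the list does not speak for every related factor. None of 27 genes of phenylpropanoid and flavonoid synthesis was a member, although 8 of the 25 averaging 1 RPKM or more scored above 0 (32%, all loci 20.8%).

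8 loci of nitrogen and amino acid metabolism were members. NIA2, the main nitrate reductase of leaves, had the highest dawn level of all members at 3174, 2546, 2012 and 3152 RPKM. It was at 583, 425, 206 and 431 RPKM at ZT6 and 213, 356, 278 and 292 at ZT15, and at dawn this single locus held 0.387% of all RPKM in Col. Of 18 genes of nitrate and sulfate assimilation only NIA2 was a member, while APR2, NIA1 and UPM1 followed at ranks 154, 160 and 175. Of the 17 averaging 1 RPKM or more, 8 scored above 0 (47.1%, all loci 20.8%). cICDH, the cytosolic NADP isocitrate dehydrogenase that supplies 2-oxoglutarate for ammonium assimilation, was at 1135, 736, 897 and 995 RPKM at ZT0 and at most 167 RPKM later. AO, aspartate oxidase of NAD synthesis, was at 86.0, 66.7, 66.3 and 66.2 RPKM at ZT0, 11.8, 4.96, 2.26 and 6.2 at ZT6 and 6.43, 6.34, 6.95 and 8.09 at ZT15. ASN2, an asparagine synthetase, was at 460.0, 322, 433 and 489 RPKM at ZT0 and 124, 91.0, 56.1 and 74.5 at ZT6. Both directions of proline metabolism were represented, with ERD5, the proline dehydrogenase, and P5CS2, a synthetic enzyme at 224, 178, 156 and 175 RPKM at ZT0. AAH, which breaks down the purine product allantoate, and TAT7, a tyrosine aminotransferase, completed the group.

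BMY3, of the beta-amylase family, had the highest score, at 543, 432, 369 and 411 RPKM at ZT0, 16.9, 12.5, 8.64 and 13.5 at ZT6 and 9.20, 8.46, 10.3 and 9.65 at ZT15. Every dawn value of BMY3 was above every later value by a wide margin. The trehalose phosphate synthase homologues TPS9 and TPS10 were both members, TPS9 at 38.2, 27.1, 19.1 and 26.2 RPKM at ZT0 and 1.79, 0.639, 0.451 and 0.636 at ZT15. TPS9, TPS10, BT2 and DRM2 were the members among 16 genes of the dark and low sugar response. Of the 14 on this list averaging 1 RPKM or more, 6 scored above 0 (42.9%, all loci 20.8%), and their median score was -0.14. SWEET2, a sugar transporter of the vacuole, was at 119, 43.6, 72.5 and 87.5 RPKM at ZT0, with C24 the lowest. BXL1, a beta-xylosidase of the cell wall, was at 277, 25.4, 39.5 and 71.5 RPKM at ZT0, 14.2, 9.04, 7.52 and 15.3 at ZT6 and 2.07, 1.33, 0.666 and 0.835 at ZT15. Its dawn level in Col stood far above the other genotypes, and its dawn difference ranged from 1.39 in C24 to 4.19 in Col on the log2 scale.

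Of the 5 BTB-TAZ proteins, scaffold proteins linked to sugar and nitrogen responses, 3 were members. BT5 was at 89.6, 32.1, 33.1 and 38.4 RPKM at ZT0, 2.88, 0.904, 0.840 and 1.38 at ZT6 and 3.65, 1.59, 2.40 and 1.98 at ZT15. BT1 was at 398, 90.3, 159 and 231 RPKM at ZT0, and its ZT6 value in C24xCol (98.0 RPKM) lay above its dawn value in C24. BT2 was at 458, 273, 286 and 339.7 RPKM at ZT0, only 8.47, 2.40, 1.84 and 2.66 at ZT6, and 56.8, 109, 91.7 and 82.1 at ZT15. Its ZT15 values were thus well above those at ZT6 in all genotypes. BT3 scored 1.04, below the limit, and BT4 scored -1.5, with its dawn level below a later level in every genotype.

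Among signalling proteins were the protein kinases CIPK1, CIPK3 and CIPK7, which act with CBL calcium sensors. CIPK7 was at 189, 174, 142 and 233 RPKM at ZT0 and at 16.9 to 48.8 RPKM later. Of abscisic acid signalling, the receptor RCAR3 was at 137, 109.8, 73.0 and 119 RPKM at ZT0 and the phosphatase HAB1 at 53.6, 44.1, 34.4 and 41.9. TMAC2, an ABI five-binding protein, was at 17.0, 4.47, 5.58 and 4.34 RPKM at ZT0 and under 2 RPKM in all later libraries. RPT2, an NPH3 family protein of phototropism, was at 465, 427, 351 and 398 RPKM at ZT0, 127, 182, 110.0 and 137 at ZT6 and 29.6, 24.2, 25.5 and 27.8 at ZT15. The 8 transport proteins grouped here included TDT, the malate transporter of the vacuole (248, 285, 242 and 392 RPKM at ZT0), the auxin exporter PIN3 (114, 92.0, 97.9 and 111) and the calcium pump ACA4 (256, 179, 163 and 236). The others were NCS1, ABCB21, AST91, G3Pp1 and CLC-B. Smaller groups were 5 proteins of ubiquitin transfer or with RING domains, the autophagy genes APG5 and ATG8E, and the SNARE genes SYP23 and VTI1B.

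Outside these groups, SAG21, a late embryogenesis abundant family protein, was second in score at 1390.1, 1394, 455 and 1034 RPKM at ZT0, 32.3, 10.8, 3.43 and 20.5 at ZT6 and 10.7, 36.8, 19.0 and 13.8 at ZT15. ColxC24 was lowest at both ZT0 and ZT6. AT1G49200, a RING protein, was at 147, 48.4, 59.8 and 81.0 RPKM at ZT0 and at 0.326 to 2.46 RPKM later. The groups by role were formed after the names of the members were seen. On chromosomes 1 to 5 lay 45, 19, 32, 15 and 37 of the 148 annotated members. In 4 cases 2 members were direct neighbours, AT1G64490 with AT1G64500, AT5G14110 with AT5G14120, AT5G18404 with AT5G18407, and AT5G15845 with COL1. AT1G62181, an identifier with no annotation entry, follows APR2 in numbering, and AT7SL-1 has near-identical copies, so both values are uncertain.

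After dawn, members differed in which later time was lower. In 44 members (29.3%) the level was lower at ZT15 than at ZT6 in all 4 genotypes, and in 14 (9.33%) it was higher in all 4. Over all 17207 loci the shares were 13.3% and 29.1%. With median-of-ratios scaling the member counts were 66 and 9 (all loci 21.1% and 19.4%), and with quantile normalization 66 and 10 (all loci 19.0% and 21.4%). The member median of ZT15 minus ZT6 was -0.40 for Col, -0.27 for C24, -0.41 for C24xCol and 0.15 for ColxC24 on the log2 scale. Over all loci it was 0.08, 0.09, 0.06 and 0.25 in that order, so ColxC24 had the highest median there too.

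6 of 150 members were lower at ZT15 than at ZT6 by at least 2 on the log2 scale in every genotype, namely COL2, BBX25, RPT2, BXL1, G3Pp1 and AT2G41250. Over all 17207 loci this held for 77. G3Pp1, a glycerol-3-phosphate permease homologue, was at 114, 132, 91.9 and 129 RPKM at ZT0, 38.4, 32.5, 24.7 and 53.6 at ZT6 and 1.76, 3.25, 3.12 and 3.26 at ZT15. In the opposite order, BT2 was higher at ZT15 than at ZT6 by 2.61 to 5.03 and AT5G21940 by 1.13 to 1.78 on the log2 scale. No other member was higher by at least 1 in every genotype, so this held for 2 of 150 members and for 206 of the 17207 loci.

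**Figure D3:**
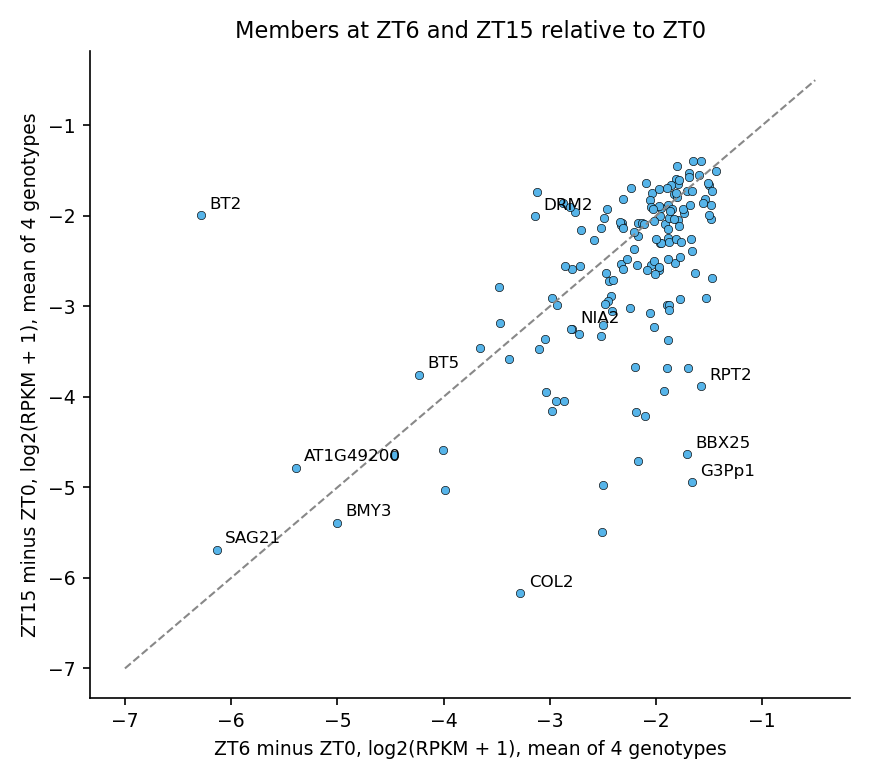
Difference from ZT0 at ZT6 (horizontal axis) and at ZT15 (vertical axis) in log2(RPKM + 1), mean of 4 genotypes, 1 point per member. Points under the dashed line of equal values were lower at ZT15 than at ZT6, as for G3Pp1, BBX25, RPT2 and COL2, and BT2 lies far above the line.

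The size of the dawn excess varied between genotypes. Its median over members was 2.14 for Col, 1.84 for C24, 1.86 for ColxC24 and 1.90 for C24xCol on the log2 scale. Over all 17207 loci the medians were -0.17, -0.01, -0.12 and -0.17 in that order. The rule scored these same differences, so they are given as a description. The gap between the genotype with the widest and that with the narrowest excess had a median of 0.75, and it was at least 1 in 51 members and at least 2 in 7. The same gap was not taken over all loci. Besides BXL1, AT4G21870, an HSP20-like chaperone, was at 146, 44.6, 81.6 and 120.0 RPKM at ZT0 and 10.9, 6.48, 2.1 and 2.66 at ZT6, with dawn differences from 2.61 in C24 to 5.05 in C24xCol. ABCB21, an auxin transporter, ranged from 1.43 in C24 to 3.66 in C24xCol.

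Levels between genotypes were not used by the score, although the score required expression in every genotype and favoured a shared time course. The parents were compared first, over the 3 times. The test used limma on all 17207 loci with Benjamini-Hochberg adjustment, and its error is the genotype-by-time residual in place of replicates. A preference for a shared time course bears on that residual. Shares of members and of all loci are therefore not like for like, here and in the later comparisons. Of the 150 members 18 (12%) were lower in C24, where 9.12% of all tested loci were called lower. Only 2 (1.33%) were higher, where 4.46% of all loci were called higher. The median change was -0.24 over members and -0.12 over all loci on the log2 scale. Median-of-ratios scaling gave medians of -0.14 and -0.02, with 14 members lower and 3 higher (1077 and 1051 of all loci), and with quantile normalization 12 members were lower and 3 higher (970 and 1161 of all loci, against 1570 and 767 as deposited). A loss of C24 reads through sequence differences from the reference was not tested.

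ERD5, the mitochondrial proline dehydrogenase of proline breakdown, was at 91.9, 13.0, 44.6 and 40.8 RPKM at ZT0, 6.6, 1.24, 1.46 and 1.37 at ZT6 and 5.57, 2.12, 1.96 and 1.83 at ZT15. C24 was below Col at all 3 times and both hybrids were below Col as well (C24 minus Col, log2 change -1.85, SE 0.32, limma adjusted p = 0.0055). UNE10, a basic helix-loop-helix factor, was at 132, 56.5, 88.6 and 96.8 RPKM at ZT0, 41.6, 13.4, 15.4 and 19.3 at ZT6 and 42.6, 20.7, 25.0 and 28.5 at ZT15 (log2 change -1.26, SE 0.16, limma adjusted p = 8.7e-04). Its hybrid values lay between the parents at each time. WRI4, an AP2 family factor of wax synthesis, was at 14.8, 5.57, 9.57 and 11.7 RPKM at ZT0, 4.93, 1.44, 2.34 and 1.86 at ZT6 and 1.84, 0.627, 1.07 and 0.937 at ZT15 (log2 change -1.12, SE 0.17, limma adjusted p = 0.0026). These 3 calls held under every alternative run.

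BT5 was also lower in C24 (log2 change -1.11, SE 0.17, limma adjusted p = 0.0029), a call lost without ZT0. AT1G61740, of a sulfite exporter family, was lower as well (log2 change -1.01, SE 0.19, limma adjusted p = 0.0076) and was no longer called without ZT0 or without ZT15. The transporters AT1G33110 of the MATE family (log2 change -1.35, SE 0.29) and SWEET2 (-1.06, SE 0.26) and the uncharacterized AT4G31875 (-1.28, SE 0.30) had calls that were lost without single libraries. The same held for AT1G49200, AT4G15430, TPS9, AAPT2, AT7SL-1, TMAC2, AT4G17245, EBP, AT1G15350 and AT5G21940, with changes from -0.98 to -0.65.

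The members higher in C24 were AT1G15405, an RNA gene with no protein product, and the cyclin gene CYCP2;1. AT1G15405 was at 15.9, 51.7, 51.0 and 70.5 RPKM at ZT0, 3.78, 15.2, 17.5 and 8.89 at ZT6 and 6.40, 16.3, 11.9 and 16.9 at ZT15. Col was the lowest genotype at every time (log2 change 1.54, SE 0.27, limma adjusted p = 0.0055). Without ZT0 or without ZT15 this locus was no longer called. CYCP2;1 differed by 0.77 (SE 0.19, limma adjusted p = 0.029), a call lost without single libraries of either parent. The number called lower was 4 without ZT0 or without ZT15, and 8 without Col at ZT0, Col at ZT6 or C24 at ZT15 alone. The number called higher was 0 without ZT0 or without ZT15, 1 without ZT6, Col at ZT6, Col at ZT15 or C24 at ZT6, and 4 without Col at ZT0.

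**Figure D4:**
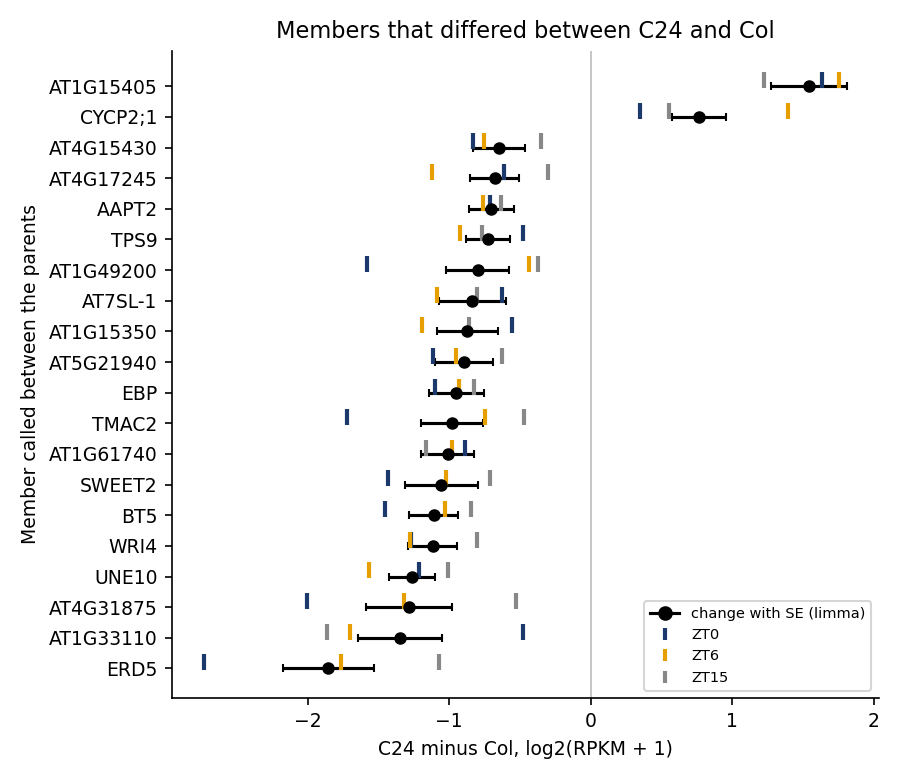
C24 minus Col in log2(RPKM + 1) for the 20 members called by limma: black points with bars are the change over 3 times with its SE, coloured ticks the difference at each time. In all 20 the 3 ticks lie on the same side of 0.

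Of the 20 members with the highest scores, 4 were called. The change was -0.28 (SE 0.18, limma adjusted p = 0.32) for BMY3 and -0.01 (SE 0.28, limma adjusted p = 0.98) for NIA2. It was 0.04 (SE 0.20, limma adjusted p = 0.91) for COL2 and -0.39 (SE 0.23, limma adjusted p = 0.28) for CDF2. BXL1 had a wide change of -1.46 with an SE of 0.48 and did not pass (limma adjusted p = 0.074). Of the B-box and CONSTANS-like list 28 genes were tested, and 0 were called higher and 1 lower, CO itself. Of 26 tested clock genes 1 was lower, RVE1. For nitrate and sulfate assimilation the counts were 1 higher and 1 lower of 17, for light signalling 0 and 1 of 20, and for the dark and low sugar response 0 and 2 of 14, TPS9 and DIN10. The PIF module had 1 higher and 1 lower of 6, and phenylpropanoid synthesis 1 and 5 of 25.

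At single times each genotype had 1 library and no test was made. At ZT0 C24 was below Col in 116 members (77.3%), against 51.6% of all loci. At ZT6 the count was 103 (68.7%, all loci 67.3%) and at ZT15 82 (54.7%, all loci 63.9%). The ZT0 count was 119 with median-of-ratios scaling (all loci 53.3%) and 117 with quantile normalization (all loci 52.6%). The later counts depended on the scaling, with 81 and 80 at ZT6 (all loci 49.9 and 46.3%) and 68 and 66 at ZT15 (all loci 51.5 and 51.6%), where the member median turned from -0.07 to 0.05 and 0.06 on the log2 scale. The median of all loci moved from -0.19 to 0.00031 at ZT6 and from -0.16 to -0.02 at ZT15 with median-of-ratios scaling. Col had the highest ZT0 level in 91 members, C24xCol in 32, C24 in 23 and ColxC24 in 4. These were 60.7, 21.3, 15.3 and 2.67% of members, against 39.2, 12.4, 37.5 and 10.9% of all loci. Col at ZT0 was also the library with the lowest estimated depth, and its part in this count was not tested.

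**Figure D5:**
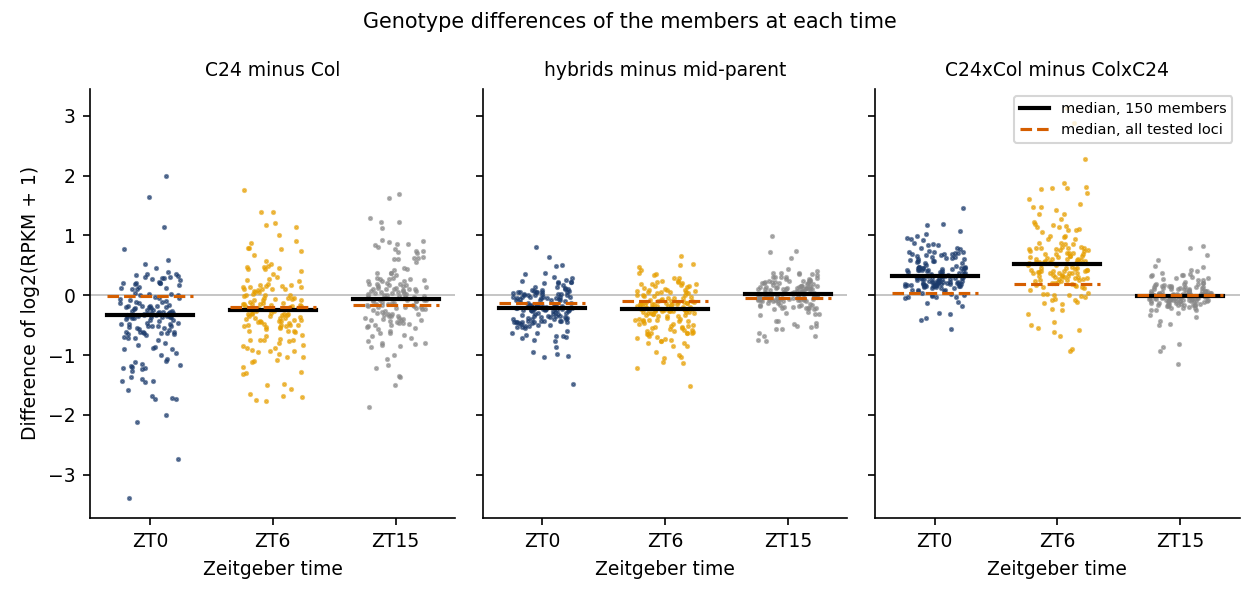
Differences of log2(RPKM + 1) between genotypes at each time, 1 point per member, with medians of the 150 members (black) and of all 17207 tested loci (dashed). The C24xCol minus ColxC24 median of members is 0.32 at ZT0, 0.53 at ZT6 (0.34 with median-of-ratios scaling) and -0.0045 at ZT15.

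The second comparison asked how the hybrids stood to the mid-parent, the mean of both parents at each time. That mean was taken on RPKM before log2, while the hybrids were averaged on the log2 scale. Where the parents differ, this gives a lower value than a mid-parent taken on the log2 scale. With limma 0 members were called higher and 0 lower, where 0% and 0.0465% of all loci were called. At an unadjusted p under 0.05, 0 members were higher and 22 lower, against 172 and 2035 of the 17207 loci. TMAC2 had the smallest adjusted p, at a change of -0.78 (SE 0.12, limma adjusted p = 0.19), with both hybrids below the mid-parent at 3 of 3 times. The median change was -0.12 over members and -0.09 over all loci. By time, the member median was -0.21 at ZT0, -0.22 at ZT6 and 0.01 at ZT15. That of all loci was -0.13, -0.09 and -0.04. These medians by time are as deposited and were not taken with other scalings.

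Both hybrids lay at least 1.5-fold outside both parents on the RPKM + 1 scale in few members. At ZT0 this held for 0 members above (0.0523% of all loci) and 0 below (0.331%). At ZT6 AT4G21870 was below both parents (0.715% of all loci) and 0 members were above (0.134%). The parents had 10.9 and 6.48 RPKM and the hybrids 2.1 and 2.66. At ZT15 AT1G29724, which has no annotation entry, was above both parents (0.174% of all loci), at 5.92, 4.14, 11.3 and 10.6 RPKM. AT1G22890, an uncharacterized protein, was below them (0.163%), at 4.35, 5.06, 2.40 and 2.28 RPKM.

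The third comparison asked whether the direction of the cross mattered. With limma 0 members were called between C24xCol and ColxC24, as were 0% of all loci in each direction. At an unadjusted p under 0.05, 28 members were higher in C24xCol and 0 lower, against 602 and 169 of the 17207 loci. The change was positive in 135 of 150 members, with a median of 0.30 against 0.08 over all loci. How many of all loci had a positive change in this fit was not counted. The smallest p was that of CIPK7 (log2 change 0.72, SE 0.18, limma adjusted p = 0.74).

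C24xCol was above ColxC24 in 136 members (90.7%) at ZT0, where 56.5% of all loci were. At ZT6 this held for 129 (86%, all loci 68.9%), and at ZT15 for 73 (48.7%, all loci 51.1%). With median-of-ratios scaling the counts were 133, 120 and 73 (all loci 50.3, 50.4 and 50.7%), and with quantile normalization 134, 115 and 77 (all loci 48.8, 44.8 and 52.8%). The median difference of members at ZT6 was 0.53 as deposited, 0.34 with median-of-ratios scaling and 0.29 with quantile normalization. DRM2, a dormancy-associated gene, was at 64.8, 24.1, 20.1 and 37.7 RPKM at ZT0, 3.09, 1.21, 1.60 and 8.51 at ZT6 and 7.43, 9.66, 4.83 and 9.03 at ZT15, with C24xCol above ColxC24 at each time. TDT was at 54.8, 75.8, 31.4 and 113 RPKM at ZT6, where C24xCol was the highest and ColxC24 the lowest. At ZT6 ColxC24 was the lowest genotype in 98 members (65.3%, all loci 39.9%), or 81 with median-of-ratios scaling (all loci 20.3%) and 72 with quantile normalization (all loci 17.4%). The median of all loci was also lower in ColxC24 than in C24xCol at ZT6, by 0.20 on the log2 scale as deposited and by 0.0036 with median-of-ratios scaling. With 1 library for each hybrid and time, the cross and the library cannot be told apart.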

How the data were processed

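The authors deposited RPKM per gene model, per the file headers, with no counts or positions. Reads were 84 bp long, per the labels' protocols, on build TAIR9, per the submitters' processing notes. The sources used here do not give the aligner or counting tool. The 38710 models were summed to 32592 loci, and 17207 averaging 1 RPKM or more, all 150 members among them, were tested on log2(RPKM + 1), which understates changes of low genes.

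Genotypes were compared with limma 3.58.1 in R 4.3.3 (trended empirical Bayes, two-sided, Benjamini-Hochberg adjustment, threshold 0.05), additive in genotype and time (12 libraries, 6 residual degrees of freedom; mid-parent 9 columns, 4). The fits were also run on simulated data with planted genotype changes and independent normal errors. The share recovered is not given here, so an absence of calls does not show an absence of differences. Python 3.11.15, pandas 2.3.3, numpy 2.4.6 and matplotlib 3.10.9 served the rest. Depth came from the steps of low RPKM values, 35.6 to 40.6% of which lay within 1% of whole reads, so no counts were recovered. Alternatives were other pseudocounts (0.1, 0.5, 5), filters and scalings, and left-out libraries or times. The scalings for counts at single times were added after seeing the data.

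Members, lists and tests were chosen with earlier results of these data known. Named are the 20 highest scores, list members, loci at the limit or left out, the called members with the 8 largest changes per direction, members outside both parents, and members grouped by role; other examples were chosen after their values were seen.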

Additional observations from a re-analysis of the deposited data

How the results depend on the processing

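There were no replicates to pair, because every genotype and time had 1 library. Genotypes were compared within shared times, since time is a term of the fit. Between C24 and Col, 18 members were called lower and 2 higher; with no filter on low values the counts were 8 and 1. Leaving out 1 library or 1 time gave 4 to 20 lower and 0 to 4 higher. No call changed direction, and those of ERD5, UNE10 and WRI4 held in every setting. Hybrids against mid-parent and between crosses had 0 members called in every setting. Members outside both parents numbered 0 below at ZT0 (1 with quantile normalization), 1 below at ZT6 (4 with a pseudocount of 0.1), 1 above at ZT15 (2 with median-of-ratios scaling, 2 with quantile normalization, 0 at a 2-fold gap) and 1 below at ZT15 (2 with a pseudocount of 0.1, 0 with either scaling and 0 at a 2-fold gap). The cause of these moves was not tested. Of the 150 members, 130 and 125 were chosen again with pseudocounts of 0.1 and 5, 134 with median-of-ratios scaling, 132 with quantile normalization, 144 with the highest gene model, 117 with the mean over genotypes, and 113 (without C24) to 134 (without Col) when 1 genotype was left out. Values near 0 at ZT6 and ZT15 rest on few reads: 1 read on 1 kb was worth 0.0602 RPKM in Col at ZT0 and less in the other libraries. At ZT0, 11 members were under 5 RPKM in some genotype.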
